A study of Homo sapiens with 24 samples.

Results

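BRG1-only promoter peaks are the promoter sites of RWPE1 cells at which a BRG1 peak was called and neither a BRM nor an SNF5 peak touched it. The members were chosen by the called peaks themselves: a BRG1 peak annotated as promoter, under 3000 bp wide, that shared not even 1 bp with any BRM or SNF5 peak. This gave 7275 members among 51504 BRG1 peaks, of which 19211 were annotated as promoter. The members named 5998 genes. Keeping only each gene's widest promoter peak under that width left 4248 members, and the wider 50% of each list held 4602. The 7275 members were 37.9% of the BRG1 promoter peaks, with an exact binomial (Clopper-Pearson) 95% interval of 37.2 to 38.6%. Another 15913 BRG1-only peaks lay in introns, 8651 in distal sequence and 1107 in exons, and are not members.

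RWPE1 is an established human cell line from benign prostate epithelium. The cells behind these peaks had been infected with a lentivirus carrying SCHLAP1, a long noncoding RNA made by some prostate cancers, and selected in 2.5 ug/mL blasticidin. BRG1, BRM and SNF5 were each immunoprecipitated from MNase-cut chromatin in 2 replicates, and 1 peak list for each subunit was used, so no value below has a replicate spread. The series also holds H3K27ac, H3K4me1 and H3K4me3 in cells carrying SCHLAP1 or the control gene LACZ, and input samples, none of them analysed here. The 3 subunits were profiled only with SCHLAP1 present, and the RNA made from the virus stands behind every peak described.

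SWI/SNF complexes use the energy of ATP to slide or evict nucleosomes and so open promoters and enhancers. Each complex holds 1 of a pair of ATPases, BRG1 (encoded by SMARCA4) or BRM (encoded by SMARCA2), and SNF5 (encoded by SMARCB1) is a core subunit of the canonical forms. A BRG1 peak without a BRM or SNF5 peak is a site with no called peak for these subunits. It is not a site shown to lack the proteins, since the lists hold positions with no read counts and the depth behind each list is unknown.

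The members' gene starts ranged from promoters packed with CpG dinucleotides to promoters with none. RefSeq promoter sequences of GRCh38.p14, 250 bases before to 50 bases after a gene's start, were read for the 4 widest members whose peak covered such a start, and, among the 100 widest, for the 2 with the highest and the 2 with the lowest CpG content. They lie at chr10:62049107-62049406 (ARID5B, plus strand), chr1:61081489-61081788 (NFIA, plus), chr11:33722900-33723199 (CD59, minus), chr6:29681103-29681402 (ZFP57, minus), chr4:112636893-112637192 (LARP7, plus), chr2:159798159-159798458 (CD302, minus), chr17:58402672-58402971 (RNF43, minus) and chr1:89022817-89023116 (GBP3, minus). Capitals mark each CpG dinucleotide. In RNF43 and GBP3, which hold none, capitals mark TGANTCA, the letters bound by AP-1 factors such as FOS and JUN.
ARID5B promoter: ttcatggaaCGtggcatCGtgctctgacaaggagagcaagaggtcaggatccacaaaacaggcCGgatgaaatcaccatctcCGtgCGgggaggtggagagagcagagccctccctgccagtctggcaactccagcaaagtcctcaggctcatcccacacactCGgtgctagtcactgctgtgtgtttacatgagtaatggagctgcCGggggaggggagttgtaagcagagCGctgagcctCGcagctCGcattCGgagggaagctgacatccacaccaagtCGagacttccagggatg
NFIA promoter: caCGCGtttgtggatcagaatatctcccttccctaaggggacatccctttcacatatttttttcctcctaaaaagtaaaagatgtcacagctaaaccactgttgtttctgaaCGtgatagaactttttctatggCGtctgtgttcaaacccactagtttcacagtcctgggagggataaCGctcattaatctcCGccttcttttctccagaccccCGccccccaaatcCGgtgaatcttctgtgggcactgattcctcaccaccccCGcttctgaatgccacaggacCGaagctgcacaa
CD59 promoter: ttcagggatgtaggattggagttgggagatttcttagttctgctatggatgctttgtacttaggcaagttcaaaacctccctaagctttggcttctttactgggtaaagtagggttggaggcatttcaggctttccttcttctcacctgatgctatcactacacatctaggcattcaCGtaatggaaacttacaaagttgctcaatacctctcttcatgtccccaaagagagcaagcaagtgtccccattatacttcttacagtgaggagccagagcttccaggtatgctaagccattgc
ZFP57 promoter: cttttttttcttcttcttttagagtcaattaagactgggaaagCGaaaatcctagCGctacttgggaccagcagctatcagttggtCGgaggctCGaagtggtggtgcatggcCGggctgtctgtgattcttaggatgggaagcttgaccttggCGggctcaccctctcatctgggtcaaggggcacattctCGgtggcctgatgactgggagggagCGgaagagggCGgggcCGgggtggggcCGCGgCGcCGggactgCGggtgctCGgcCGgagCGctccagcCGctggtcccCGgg
LARP7 promoter: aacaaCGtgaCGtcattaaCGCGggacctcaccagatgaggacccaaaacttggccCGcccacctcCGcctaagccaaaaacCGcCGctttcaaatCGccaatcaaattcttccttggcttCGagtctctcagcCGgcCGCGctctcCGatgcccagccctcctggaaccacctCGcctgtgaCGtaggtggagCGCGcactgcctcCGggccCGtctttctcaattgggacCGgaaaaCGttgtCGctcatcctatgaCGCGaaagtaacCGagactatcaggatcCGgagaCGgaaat
CD302 promoter: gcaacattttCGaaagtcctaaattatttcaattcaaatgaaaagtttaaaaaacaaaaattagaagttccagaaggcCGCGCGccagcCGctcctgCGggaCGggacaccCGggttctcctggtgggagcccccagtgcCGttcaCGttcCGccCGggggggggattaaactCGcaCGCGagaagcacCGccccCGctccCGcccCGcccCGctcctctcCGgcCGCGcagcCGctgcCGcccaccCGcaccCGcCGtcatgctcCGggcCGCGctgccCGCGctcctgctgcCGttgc
RNF43 promoter: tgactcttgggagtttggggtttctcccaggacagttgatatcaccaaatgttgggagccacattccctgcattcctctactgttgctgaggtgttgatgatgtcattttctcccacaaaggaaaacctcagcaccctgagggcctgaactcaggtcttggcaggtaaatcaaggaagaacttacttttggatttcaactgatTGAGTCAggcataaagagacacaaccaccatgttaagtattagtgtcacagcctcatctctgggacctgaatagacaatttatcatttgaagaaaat
GBP3 promoter: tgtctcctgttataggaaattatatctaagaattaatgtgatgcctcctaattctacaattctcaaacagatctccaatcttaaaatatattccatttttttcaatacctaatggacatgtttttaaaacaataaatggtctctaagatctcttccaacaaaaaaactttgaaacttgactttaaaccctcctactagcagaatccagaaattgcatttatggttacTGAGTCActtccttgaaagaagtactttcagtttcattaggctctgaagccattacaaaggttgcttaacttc

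CpG content was measured as the count of CpG over the count expected from the C and G present. LARP7, which encodes a protein that binds the 7SK RNA, held 28 CpG in 300 bases, a ratio of 1.17. CD302, which encodes a C-type lectin receptor, held 34 CpG, a ratio of 1.12. ZFP57, an imprinting regulator, held 20 CpG (ratio 0.73), ARID5B, an AT-rich DNA binding protein, held 12 (0.49), and NFIA, a transcription factor of the nuclear factor I family, held 10 (0.62). CD59, which protects cells from complement, held 1 CpG. RNF43, a ubiquitin ligase that removes WNT receptors, and GBP3, an interferon-inducible GTPase, held 0, and both held 1 match to TGANTCA. CpG-rich and CpG-poor promoters were thus both found among the widest members.

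Members were narrow peaks. Their median width was 503 bp (95% exact interval of the median 497 to 510), with 10% under 341 bp and 10% over 1009 bp. BRG1 promoter peaks under the same width limit that met a BRM peak but no SNF5 peak (7767 peaks) had a median of 1041 bp, and those that met both (3619) had a median of 1524 bp. Another 93 met SNF5 alone and are not described. Width is part of the rule and a wider peak has more bases that can meet another peak, so these widths describe how the classes were cut. In the wider 50% of each list the members' median was 956 bp. The narrowest members measured 331 bp, the shortest width in the BRG1 list, and included peaks at CHRM3, a muscarinic receptor gene, and HDLBP, which encodes a lipoprotein binding protein.

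The widest members were at ARID5B (chr10:62048666-62051332, 2667 bp), NFIA (chr1:61079612-61082220, 2609 bp), CD59 (chr11:33722538-33725049, 2512 bp), ZFP57 (chr6:29678908-29681323, 2416 bp) and CASP4 (chr11:104966559-104968950, 2392 bp), the gene of an inflammatory caspase. Coordinates are in hg38. RAET1E, a ligand of the NKG2D receptor (2323 bp), VAMP4, a vesicle fusion protein (2274 bp), IL20RB, a receptor chain for IL-20 family cytokines (2222 bp), INPP4B, a phosphoinositide phosphatase (2184 bp), and DST, the hemidesmosome linker dystonin (2166 bp), came next. These 10 differed in their surroundings. The CASP4 peak lay 1052904 bp from the nearest BRM peak, and neither it nor ZFP57, RAET1E, VAMP4 or IL20RB had a BRM or SNF5 peak named for its gene. The NFIA peak lay 408 bp from a BRM peak, and 6 BRM peaks were named for NFIA. The DST peak lay 214 bp from a BRM and 302 bp from an SNF5 peak.

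At the width limit, the gap was wide. The widest 5 members ran from 2392 to 2667 bp, and 3 BRG1-only promoter peaks fell just outside, at MED12L (3323 bp), MIER1 (3370 bp) and COL17A1 (4171 bp). COL17A1 encodes the hemidesmosome collagen of basal epithelium. At the overlap limit the edge was fine. An SNF5 peak lay directly beside the DNAJC4 member, with a gap of 0 bp, and BRM peaks lay 1 bp from the members at FAM212A and DDAH2. On the other side, BRG1 promoter peaks at SH3BGRL3, RAI1 and SLC2A4RG met a BRM peak by 2 bp each and are not members.

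The label promoter held by the deposited annotation for every member, but a RefSeq start was near in only part of them. Centres of members lay a median of 288 bp from the annotated transcription start site (TSS; interval 278 to 296 bp), against 185 bp (179 to 191) for BRG1 peaks shared with BRM and 136 bp (130 to 145) for peaks shared with both. The median was thus 103 bp longer for members than for peaks shared with BRM. The difference was 40 bp with promoters limited to 500 bp and 56.5 bp in the wider 50% of each list. It was 37 bp when a BRM or SNF5 peak less than 1000 bp away counted as overlap. Each of these rules recuts the peaks shared with BRM as well as the members. Within 100 bp of the TSS lay 21.8% of members, 33.5% of peaks shared with BRM and 42.2% of peaks shared with both. Chromosome 8 was left out of measures on RefSeq starts, whose table was used without it, which left 7000 members. Of these, 50.8% (49.7 to 52.0) had a RefSeq start within 1000 bp of the centre, against 72.6% (71.6 to 73.6) of peaks shared with BRM and 81.9% (80.6 to 83.2) of peaks shared with both. A start further than 5000 bp away was the nearest for 33.9% of members, 19.2% of peaks shared with BRM and 14.1% of peaks shared with both. The deposited annotation thus places a TSS at many members where the RefSeq table has none. The intervals given here did not overlap between classes. They treat peaks as independent and cover counting error only.

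Where a RefSeq start was near, the peaks of all classes lay mostly on its downstream side. Of the 3558 members with a start within 1000 bp, 62.2% had their centre downstream of it, against 68.5% of peaks shared with BRM and 68.9% of peaks shared with both. The median offset was 132 bp downstream for members, 145 bp for peaks shared with BRM and 120 bp for peaks shared with both. Members were more spread out on both flanks. More than 500 bp upstream lay 11.1% (10.1 to 12.1) of members, against 6.48% (5.84 to 7.17) of peaks shared with BRM and 3.84% (3.16 to 4.61) of peaks shared with both. More than 500 bp downstream lay 21.8%, 15.2% and 12.3% of the same classes.

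**Figure D1:**
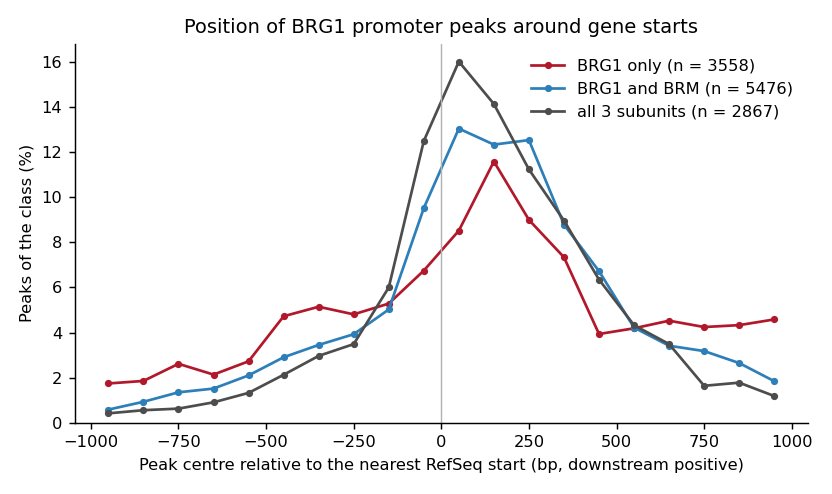
Position of the peak centre relative to the nearest RefSeq start (x axis, bp, downstream positive, bins of 100 bp) as a percent of the peaks of each class (y axis), for BRG1-only peaks, peaks shared with BRM and peaks shared with both BRM and SNF5. The highest bin holds 11.6% of the BRG1-only peaks, 150 bp downstream, and their curve is the highest of the 3 on both outer flanks.

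Starts on opposite strands that point away from each other make head-to-head promoters, a common arrangement at CpG islands. Such a pair, with starts at most 1000 bp apart, lay at 6.36% (5.80 to 6.95) of members, 14.4% (13.6 to 15.2) of peaks shared with BRM and 21.3% (19.97 to 22.7) of peaks shared with both. Both starts had to lie within 1000 bp of the centre, and 50.8%, 72.6% and 81.9% of these classes had any such start. The head-to-head shares are thus not separate from that measure. The peak itself covered a RefSeq start in 22.03% of members, 55.7% of peaks shared with BRM and 77.2% of peaks shared with both. This last measure grows with peak width and is given as a description.

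The differences in position were present at like width. BRG1 promoter peaks were split into 5 bins of equal number by width, and members made up 80.4% of the narrowest bin (331 to 456 bp) and 3.29% of the widest. In the narrowest bin the median distance to the TSS was 309 bp for 2997 members, 214.5 bp for 672 peaks shared with BRM and 161.5 bp for 60 peaks shared with both. In the widest it was 299 bp for 123 members, 193 bp for peaks shared with BRM and 148 bp for peaks shared with both. A RefSeq start within 1000 bp was found for 46.9 to 52.7% of members across the 5 bins, 64.8 to 76.2% of peaks shared with BRM and 76.7 to 83.6% of peaks shared with both. The 3 classes kept this order in every bin.

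**Figure D2:**
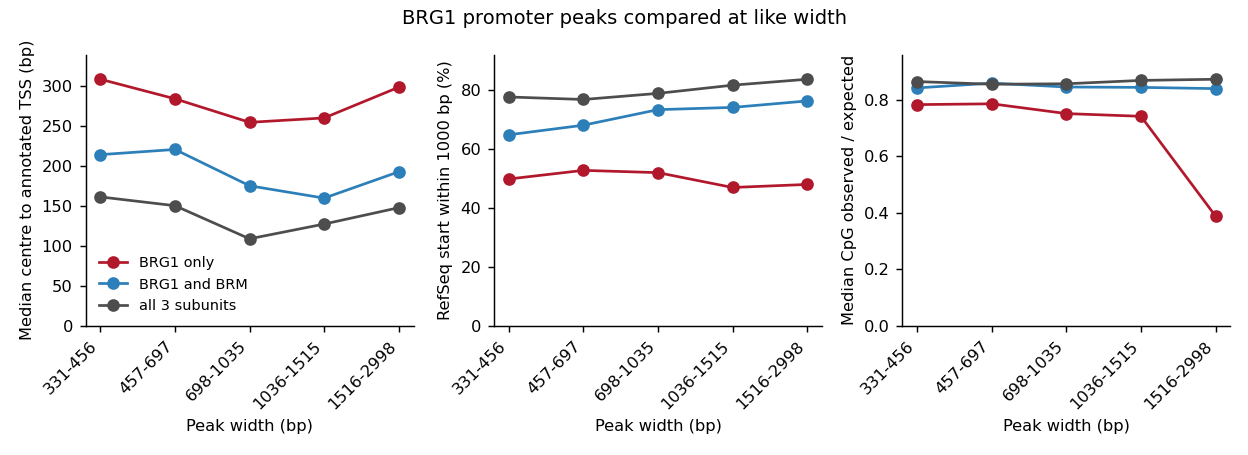
Median distance to the annotated TSS (left, bp), percent of peaks with a RefSeq start within 1000 bp (middle) and median CpG observed over expected at that start (right) in 5 bins of peak width (x axis, bp), for BRG1-only peaks, peaks shared with BRM and peaks shared with both. BRG1-only peaks are the farthest from the TSS, the least often near a RefSeq start and the poorest in CpG in each bin, and in the widest bin their median CpG ratio is 0.39.

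The 34943 RefSeq promoters off chromosome 8 were then sorted by the BRG1 promoter peaks for which they were the nearest start, within 1000 bp of the centre, and a promoter counted as BRG1-only where none of these peaks was shared. A further 5489 promoters had a BRG1 peak centred within 1000 bp but fell in none of these classes, for example where the peak was nearer to another start or was not one of the classed promoter peaks. The 2835 BRG1-only promoters were rich in CpG, but less so than shared ones. Their median CpG ratio was 0.76 (0.75 to 0.77), against 0.84 (0.84 to 0.85) for 5140 promoters shared with BRM, 0.87 (0.86 to 0.88) for 2846 shared with both and 0.27 (0.27 to 0.28) for 18633 promoters with no BRG1 peak centred within 1000 bp. Of the BRG1-only promoters, 303 had a shared peak within 1000 bp that was nearer to another start. Promoters with a ratio of 0.6 or more and at least 50% G and C made up 64.7% (62.9 to 66.5) of the BRG1-only class, 84.4% (83.4 to 85.4) of promoters shared with BRM, 91.6% (90.5 to 92.6) of promoters shared with both and 18.6% of promoters with no BRG1 peak. The first quartile of the ratio was 0.46 in BRG1-only promoters, against 0.71 for promoters shared with BRM and 0.76 for promoters shared with both. Median G and C content was 62.7% in BRG1-only promoters and 67.0% in each shared class.

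**Figure D3:**
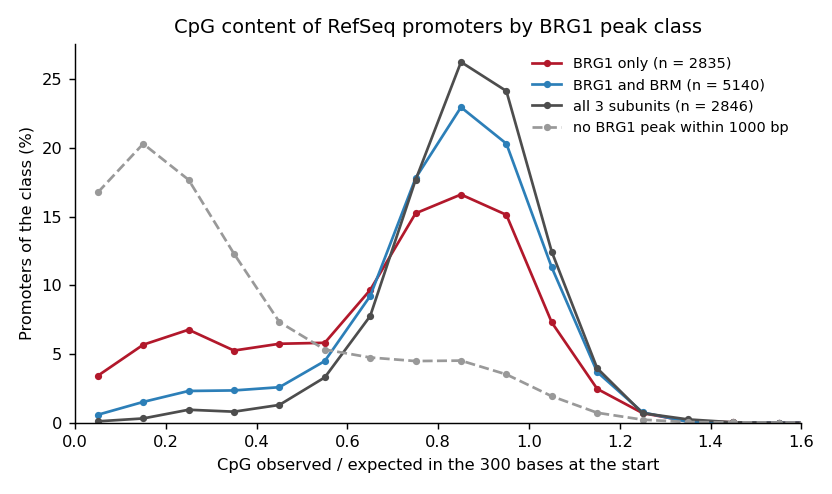
CpG observed over expected in the 300 bases at RefSeq starts (x axis, bins of 0.1) as a percent of the promoters of each class (y axis), for BRG1-only promoters, promoters shared with BRM, promoters shared with both, and promoters with no BRG1 peak centred within 1000 bp (dashed). BRG1-only promoters peak at 0.85 like the shared classes and carry a low shoulder under 0.4, where 599 of the 2835 lie.

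The low shoulder was strongest in the widest members. Of the 58 members over 1515 bp wide with a RefSeq start near, the median CpG ratio was 0.39, against 0.84 for peaks shared with BRM and 0.87 for peaks shared with both in the same bin. In the 4 narrower bins the members' medians ran from 0.74 to 0.79. CD59, RNF43 and GBP3, shown above, belong to the wide, CpG-poor members, and LARP7 and CD302 to the CpG-rich ones.

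Short motifs were searched on both strands of the same 300 bases, and a match is a description of letters, not a bound site. TATAAA, the core of the TATA box, was in 8.47% (7.47 to 9.55) of BRG1-only promoters, 4.47% (3.93 to 5.08) of promoters shared with BRM, 4.15% (3.44 to 4.94) of promoters shared with both and 11.6% of all RefSeq promoters. TGANTCA was in 8.40% (7.40 to 9.48), 5.19% (4.60 to 5.84), 3.76% (3.09 to 4.53) and 7.72% of the same sets. GGGCGG, a letter string bound by SP1, was in 60.6%, 75.3%, 76.6% and 44.9% of them. CCGGAAG, bound by ETS factors, was in 12.03%, 17.8%, 22.7% and 10.2%. GCGCNTGC, bound by NRF1, was in 14.7%, 20.3%, 24.6% and 11.7%. CCAAT, bound by NF-Y, was alike at 35.1%, 34.5%, 35.4% and 34.6%. For each of the first 5 of these motifs the BRG1-only share lay on the side of the shared classes that faces promoters with no BRG1 peak.

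Part of these shares moved with base composition. Among promoters under 62.0% G and C, TATAAA was in 14.2% of BRG1-only promoters, 9.80% of promoters shared with BRM and 8.51% of promoters shared with both. In the same bin TGANTCA was in 14.3%, 9.92% and 4.96%, and CCGGAAG in 12.7%, 19.7% and 24.9%. Above 70.3% G and C, TATAAA was in 1.44%, 1.65% and 1.72% and TGANTCA in 1.71%, 2.53% and 2.14%, so the order of TATAAA and TGANTCA did not hold there, while CCGGAAG at 9.32%, 14.1% and 17.8% kept its order. Within the BRG1-only promoters, those with a CpG ratio under 0.4 (599) held TGANTCA in 23.7% and TATAAA in 18.7%. Those with a ratio of 0.6 or more (1909) held TGANTCA in 3.40% and TATAAA in 4.82%, and held CCGGAAG in 15.7%, against 2.67% of the CpG-poor ones. The other 6 motifs were searched in the same way. AACCNGTT, part of the grainyhead-like site, was in 1.52% of BRG1-only promoters, 1.23% of promoters shared with BRM and 1.02% of promoters shared with both. GGAATG, bound by TEAD factors, was in 12.9%, 9.92% and 10.1%, GAANNTTC, bound by heat shock factor, in 5.89%, 4.05% and 4.43%, and AAGATGGC, bound by YY1, in 3.21%, 5.18% and 5.03%. TGACGTCA, bound by CREB, was in 2.79%, 3.40% and 2.95%, and CACGTG, the E-box, in 9.03%, 9.55% and 10.6%.

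Members lay at all distances from BRM and SNF5 peaks. The median gap to the nearest BRM peak was 12789 bp and to the nearest SNF5 peak 106044 bp. A BRM peak lay within 1000 bp of 26.9% of members and an SNF5 peak within 1000 bp of 6.20%. Another BRG1 peak lay within 1000 bp of 49.8% of members, and a BRG1 peak shared with BRM or SNF5 within 1000 bp of 27.5%. The gene named by the peak also had a shared BRG1 promoter peak in 36.3% of members. This share was 18.5% in the wider 50% of each list and 7.74% when only the widest promoter peak of each gene was kept. The latter rule drops a member wherever its gene has a wider shared promoter peak under the width limit. The 7.74% is thus set in part by that rule. The gene was named by a BRM peak anywhere in 48.6% of members and by an SNF5 peak in 17.2%. The median gap to either partner was 12333 bp. It was 44503 bp in the wider 50% of each list, a rule that also drops the narrower BRM and SNF5 peaks. For members with no partner within 1000 bp, a rule that removes every shorter gap, it was 32171 bp. With only the widest promoter peak of each gene kept it was 28367 bp. These values describe the rules as well as the sites.

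The 1985 members less than 1 kb from a BRM or SNF5 peak lay a median of 426 bp from the TSS, 68.7% of their genes had a shared BRG1 promoter peak, and their starts had a median CpG ratio of 0.84. The 1454 members at 1 to 10 kb had a RefSeq start within 1000 bp in 36.3% and a CpG ratio of 0.66. The 2475 members at 10 to 100 kb had a RefSeq start near in 46.5% and a ratio of 0.74. TGANTCA was in 10.1% of their promoters and in 10.25% at 1 to 10 kb, against 6.02% under 1 kb. Over 100 kb it was in 6.98%, and in 9.24% outside the 10 Mb windows described below. The 1361 members over 100 kb from any partner lay closest to the TSS, at a median of 210 bp, and 65.7% had a RefSeq start near. Only 5.58% of their genes had a shared BRG1 promoter peak. The longest gaps to BRM were on chromosome X, where no SNF5 peak was called, at NAP1L3 (14042475 bp), DIAPH2 (11030781 bp) and TSPAN6 (7079487 bp).

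Several members shared a gene in 31.4% of cases. ALDH1A2, which makes retinoic acid, and CASC19, a long noncoding RNA, were named by 7 members each. EHF, an epithelial ETS factor, TBL1XR1, a corepressor subunit, and TRA2B, a splicing regulator, were named by 6 each. EHF, CASC19 and TBL1XR1 had no shared BRG1 promoter peak, while ALDH1A2 had 2 and TRA2B had 1. The 6 EHF members were 387 to 1694 bp wide. Counts of members are therefore not counts of genes.

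By RefSeq type, 76.4% (75.4 to 77.4) of members were named for a protein-coding gene, against 85.0% (84.2 to 85.8) of peaks shared with BRM and 87.5% (86.4 to 88.6) of peaks shared with both. The difference in the protein-coding share was -8.59 points, and -16.5 points with 1 peak for each gene. Long noncoding RNAs were named by 5.50%, 4.42% and 3.90%. Pseudogenes were named by 3.22% (2.82 to 3.65), 1.35% (1.11 to 1.63) and 0.94% (0.65 to 1.31). Names not matched in RefSeq made up 13.3% of members, 8.39% of peaks shared with BRM and 6.77% of peaks shared with both. Among members 913 bore clone names with a version number, 172 names starting LINC, 156 antisense names and 87 names starting MIR.

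Genes were then described by whether their promoter had members and no shared BRG1 promoter peak. This held for 2520 of 20037 protein-coding genes, or 12.6%, while 43.0% had a shared BRG1 promoter peak. Of the genes with any BRG1 promoter peak, 22.6% had members alone. The 46 gene lists and families described next are read against 12.6%. The exact interval of the share lay above it in 3 of them (interferon response, WNT ligands and coiled-coil proteins named CCDC) and below it in 3 (olfactory receptors, keratin associated proteins and histone genes). In these last 3 groups many genes had no BRG1 promoter peak at all: 389 of 390, 91 of 94 and 47 of 91. Their low shares of all genes are therefore not low shares of bound genes in each case. No list was tested, and with 46 intervals some lie off the background by counting error.

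Interferon-stimulated genes, which encode antiviral proteins, were among the groups with most BRG1-only promoters. Of 25 genes 8 (32.0%, 14.9 to 53.5) had members alone, 12 had a shared BRG1 promoter peak and 5 had none. IFIT1, IFIT2 and IFIT3, of an antiviral family, had members of 1418 bp (chr10:89392198-89393615), 1135 bp (chr10:89301574-89302708) and 1006 bp (chr10:89327676-89328681). IFI44L had a member of 803 bp (chr1:78619915-78620717), 640289 bp from the nearest BRM peak. IFI35 (725 bp), OAS2 (453 bp), MX2 (376 bp) and OASL (333 bp) made up the rest, and the gap to BRM of the 8 ran from 7626 bp at IFI35 to the value of IFI44L. A RefSeq start lay near 4 of them, with CpG ratios of 0.26 at IFIT1, 0.42 at IFIT3, 0.00 at IFI44L and 0.38 at IFI35. GBP3, whose promoter is printed above, is interferon-inducible and was not on the list. TRIM genes, several of them antiviral, had 11 of 67 (16.4%, 8.49 to 27.5), led by TRIM22 (1341 bp), TRIM62 (1206 bp), TRIM28 (1109 bp) and TRIM5 (939 bp).

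WNT ligands, secreted signals that act through Frizzled receptors, had 8 of 19 genes with members alone (42.1%, 20.2 to 66.5), 4 with a shared peak and 7 with none. WNT7A had a member of 947 bp, WNT10B of 902 bp (chr12:48971076-48971977), WNT5B of 872 bp and WNT6 of 730 bp. WNT4, WNT3A, WNT1 and WNT9B had members of 365 to 612 bp. The 6 with a RefSeq start near had CpG ratios of 0.77 to 0.93, all above those of the 4 interferon genes with a start near. The gap to BRM was 144 bp at WNT3A and 815 bp at WNT7A. At the other WNT genes with members alone it ran from 12167 bp at WNT6 to 87367 bp at WNT4.

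Kinesins, the motors that walk on microtubules, had 9 of 39 (23.1%, 11.1 to 39.3), with KIF13A (1096 bp), KIF2C (1028 bp), KIF5C (637 bp) and KIF7 (590 bp) widest. Primary cilium genes had 7 of 34 (20.6%, 8.70 to 37.9), among them IFT140 (1400 bp), IFT172 (867 bp), TMEM67 (690 bp) and IFT81 (582 bp). Both intervals hold the 12.6% of all genes. Genes named CCDC had 25 of 130 (19.2%, 12.8 to 27.1), led by CCDC80 (1346 bp), CCDC184 (1258 bp), CCDC15 (1093 bp) and CCDC167 (1053 bp).

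Genes of the SWI/SNF complex itself had members alone in 6 of 29 (20.7%, 7.99 to 39.7) and a shared peak in 19. SS18 (1504 bp, 457450 bp from BRM), BCL7C (1217 bp), DPF3 (606 bp) and ACTL6B (602 bp) were widest, followed by BCL7A and SMARCD3. The gap to BRM was 509 bp at DPF3, 1004 bp at BCL7C and 1397 bp at BCL7A. It was 16984 bp at ACTL6B and 167411 bp at SMARCD3. DPF3 and ACTL6B are known as tissue-restricted subunits. Mediator, the bridge between activators and RNA polymerase II, had 6 of 30 (exact interval of the share 7.71 to 38.6%), with MED21 (1310 bp), MED18 (1210 bp), MED12 (678 bp) and MED6 (603 bp).

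Markers of epithelial states were mostly shared or unbound. Of all protein-coding genes, 43.0% had a shared BRG1 promoter peak and 12.6% members alone. Of 26 basal markers 19 had a shared BRG1 promoter peak and 3 (11.5%) members alone, at LAMA3 (1164 bp), a laminin chain, at EGFR (806 bp), a growth factor receptor, and at KRT14 (530 bp), a basal keratin. Of 21 luminal prostate markers 10 were shared, 9 had none and 2 had members alone, at ACP3 (2059 bp), prostatic acid phosphatase, and TMPRSS2 (1287 bp), an androgen-regulated protease. Of 24 squamous genes 3 had members alone, at GRHL3 (1895 bp), a grainyhead-like factor, PI3 (1312 bp), the elafin gene, and IVL (1081 bp), a cornified envelope protein. Keratins had 5 of 55, with KRT16 (1624 bp) and KRT6A (1366 bp), both made in stressed epidermis, KRT14 (530 bp) and KRT78 (431 bp) the widest. Genes of other tissues were mostly without a BRG1 promoter peak: 16 of 20 blood cell, 18 of 20 hepatocyte, 13 of 16 stromal and endothelial and 12 of 20 neuronal markers had none. For comparison, 11136 of all 20037 protein-coding genes had such a peak and the rest had none. Members alone were, among others, at SERPINA1 (380 bp) among hepatocyte, KDR (899 bp) and PDGFRA (506 bp) among stromal and endothelial, and SYT1 (750 bp) and SYP (568 bp) among neuronal markers. No blood cell marker had members alone.

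None of 20 targets of p53, the stress-activated tumour suppressor, had members alone (upper bound 16.8%), an interval that holds the 12.6% of all genes. A shared peak was at 19 of the 20, against 43.0% of all protein-coding genes. Cytosolic ribosomal proteins had 6 of 82 (7.32%, 2.73 to 15.2) with members alone and 59 shared. Histone genes had 3 of 91 (3.30%, 0.69 to 9.33), at H3C6 (483 bp), H3C3 (362 bp) and H2BC13 (353 bp). Olfactory receptors had 0 of 390 (upper bound 0.94%), and 389 of them had no BRG1 promoter peak. Keratin associated proteins had 3 of 94, and the other 91 had no BRG1 promoter peak. C2H2 zinc finger genes named ZNF had 74 of 509 (14.5%, 11.6 to 17.9), led by ZNF214 (1445 bp), ZNF827 (1372 bp), ZNF2 (1100 bp) and ZNF546 (1057 bp). Genes induced by NF-kB had 2 of 20, the cytokine genes CXCL8 (534 bp) and IL6 (332 bp).

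**Figure D4:**
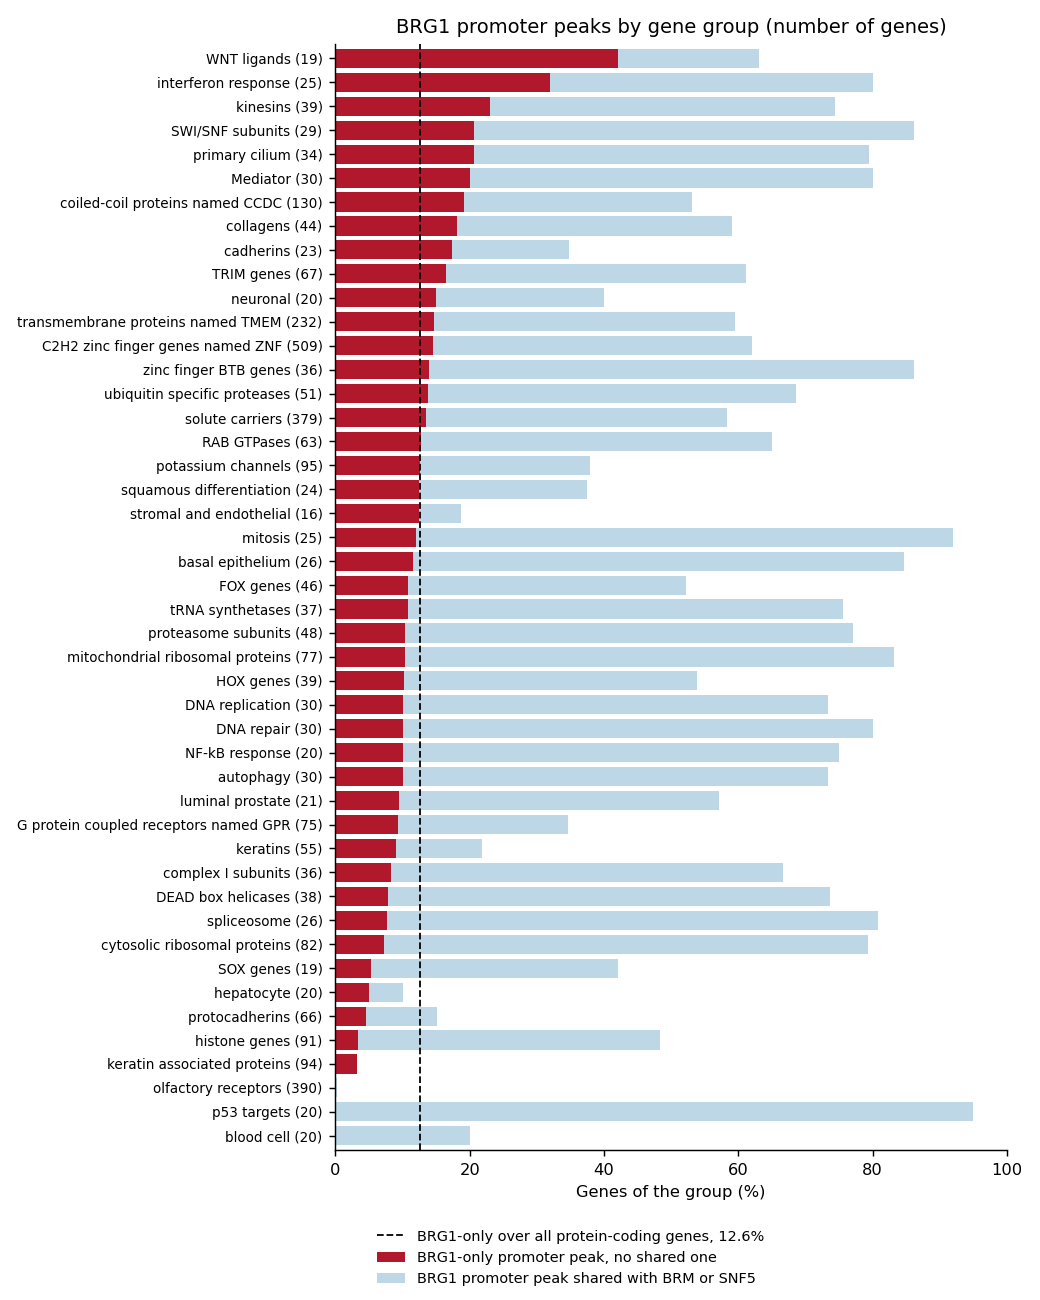
Percent of the genes of each group (x axis; number of genes beside the name) with a BRG1-only promoter peak and no shared one (dark) and with a BRG1 promoter peak shared with BRM or SNF5 (light, stacked). The dashed line marks 12.6%, the BRG1-only share over all protein-coding genes, and WNT ligands (42.1%) and interferon response genes (32.0%) stand at the top.

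The members were spread unevenly over the chromosomes. Their share of BRG1 promoter peaks was 30.6% (28.2 to 33.2) on chromosome 19, the lowest, and 79.9% (74.7 to 84.5) on chromosome X, 77.1% (70.0 to 83.2) on chromosome 22 and 61.4% (54.3 to 68.0) on chromosome 18. It was at most 46.6%, on chromosome 3, elsewhere. BRM had 84, 86 and 130 peaks on chromosomes X, 22 and 18, and SNF5 had 0, 2 and 31.

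Stretches of other chromosomes looked the same. In windows of 10 Mb, 37 of 305 had at least 10 BRG1 promoter peaks of which 60% or more were members; this limit was set after the shares were seen. They covered the first 70 Mb of chromosome 3 (185 of 253 BRG1 promoter peaks, 73.1%, against 35.5% on the rest of that chromosome), the first 20 Mb of chromosome 4 (44 of 53), chromosome 7 from 130 to 160 Mb (61 of 83), chromosome 8 from 10 to 50 Mb (93 of 122), the first 10 Mb of chromosome 9 (23 of 31), chromosome 18 from 20 to 60 Mb (69 of 91), chromosome 22 from 10 to 50 Mb (128 of 165), 10 windows on chromosome X, and single windows on chromosomes 7 and 18. On chromosome 3, 1 SNF5 peak was called in those 70 Mb. In the 37 windows the lists held 23.1 BRM and 1.16 SNF5 peaks for every 100 BRG1 peaks, against 43.7 and 13.0 in the other windows. BRG1 promoter peaks were fewer too, at 25.3 for every 100 RefSeq starts off chromosome 8 in these windows, against 57.0 in the others. The windows were picked by their share of members, so these values are a description, and the part of the lower density of BRG1 peaks in that share was not tested.

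The 828 members in these windows lay closer to the shared peaks in position and CpG content than the other 6447 did. Their median distance to the TSS was 180 bp, against 308 bp for the other members. A RefSeq start was near 76.7% of them and 47.8% of the other members, and head-to-head starts lay at 14.7% and 5.38%. Their median CpG ratio was 0.84, against 0.75. In the windows TGANTCA was in 6.03% of the members' 564 starts and in 8.57% of the 175 starts of peaks shared with BRM, the opposite order to that outside the windows (8.52% and 5.02%). Without the windows the contrast with peaks shared with BRM was as large or larger: a RefSeq start was near 47.8% of members and 72.3% of shared peaks, and the median CpG ratio was 0.75 and 0.85. By chromosome, members had the lower share with a RefSeq start near and the lower CpG ratio on all 22 chromosomes measured, and the longer distance to the TSS on 21 of 23, chromosomes 18 and 22 being the exceptions.

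**Figure D5:**
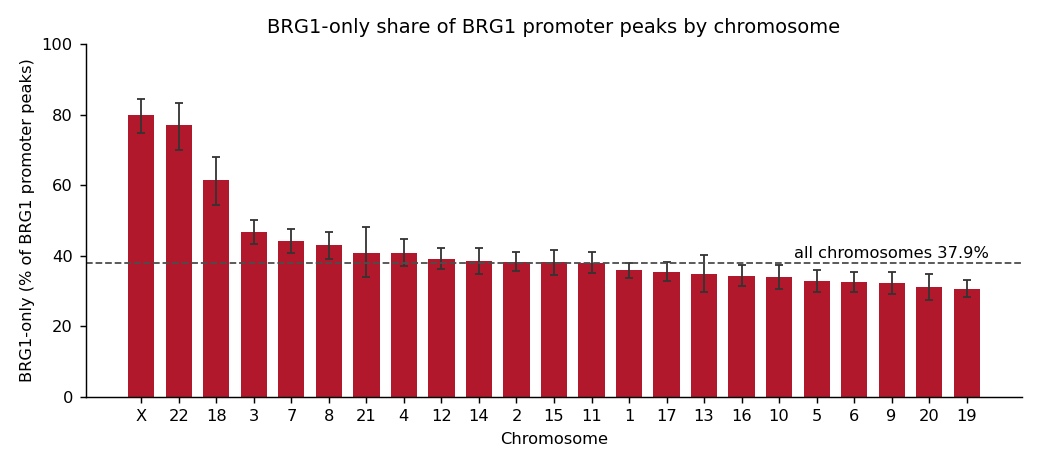
BRG1-only share of the BRG1 promoter peaks of each chromosome (y axis, percent; bars are exact binomial 95% intervals), ordered from the highest. Chromosomes X (79.9%), 22 (77.1%) and 18 (61.4%) stand apart from the other 20, and the dashed line marks 37.9% over all chromosomes.

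Some of the named genes lie in these windows. They hold 2 of the 3 basal genes (LAMA3 and EGFR), 2 of the 6 SWI/SNF genes (SS18 and SMARCD3), 2 of the 6 Mediator genes (MED12 and MED28), 1 of the 8 WNT ligands (WNT7A), 4 of the 25 CCDC genes and 4 of the 6 ribosomal protein genes. None of the 8 interferon genes, the 9 kinesins or the 7 cilium genes lies in them. Outside the windows the 870 members over 100 kb from any partner had a RefSeq start near in 59.1% and a CpG ratio of 0.73, against 65.7% and 0.78 with the windows included. TGANTCA was in 9.24% of the promoters of these 870, against 10.1% at 10 to 100 kb and 6.03% under 1 kb outside the windows.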

How the data were processed

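Chromatin of RWPE1 cells was cross-linked by the authors with 0.3% formaldehyde (30 min, stopped by 125 mM glycine), per the labels' protocols. The submitters' processing notes name hg38 as the build and, without saying what each did, the tools MACS2, Bowtie2, SAMtools and deepTools 2.5.2. How peaks were thresholded, filtered or pooled is not given in the sources used here. Each deposited list gives a peak's start, end, width in bp, annotated place, nearest TSS and distance to it, per the file headers, with no score or count, so precision by depth cannot be given.

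Overlap was at least 1 bp, and a gap is the number of bases between peaks. Shares and medians carry exact 95% intervals for counting error only, and no test was run, since each subunit has 1 list. Gene names were matched to RefSeq of GRCh38.p14 by chromosome and symbol or synonym, which placed 86.7% of members. Promoter sequences are RefSeq's. The 12 motifs were searched on both strands, and none is part of another. The width and GC bins hold equal numbers of peaks (5) and of bound promoters (3). The genes named are the 10 widest and 3 narrowest members, those nearest the width and overlap limits, those with the 3 longest gaps, the 5 with most members and up to 4 with the widest member in each group. A few others were named after their values were seen, among them the remaining members of small groups. Some genes that the rule takes are not reported here. Members, the 19 gene lists, the 27 symbol families and the alternatives were chosen with earlier results of these data known. The routines were tested on simulated data. Computing used pandas 2.3.3, numpy 2.4.6 and scipy 1.17.1 under Python 3.11.15, and figures matplotlib 3.10.9.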

Additional observations from a re-analysis of the deposited data

How the results depend on the processing

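No difference from peaks shared with BRM changed sign under any of the 12 alternatives. Counts, widths, gaps and shares given alone have no sign that could change. Of the alternatives, 3 were chosen after seeing the data (without chromosomes 18, 22 and X, without the 10 Mb windows, and every peak within 1000 bp of a start). In all, 75 values stayed within 1.5 times (counts) or within the half-width of the main exact interval, and 59 moved. For a difference this half-width is that of the BRG1-only value alone. It leaves out the counting error of the peaks shared with BRM. The main values were 7275 members, 38.8% of BRG1 promoter peaks under 3000 bp, a median width of 503 bp, a median gap of 12333 bp to a BRM or SNF5 peak, a distance to the TSS 103 bp longer than for peaks shared with BRM, a shared promoter peak at 36.3% of members' genes, -8.59 points protein coding, 12.6% of genes, -21.8 points with a RefSeq start near, -0.0847 in CpG ratio, 3.20 points for TGANTCA and -8.00 points head to head. Points, the CpG ratio and the distance are differences, BRG1-only minus shared with BRM. Values that moved follow.
Counting a BRM or SNF5 peak less than 1000 bp away as overlap recut the shared classes as well as the members. With it the share was 28.2%, the width 519 bp, the gap 32171 bp, the distance difference 37 bp, genes with a shared promoter peak 25.9%, genes 10.9%, CpG ratio -0.098 and head to head -7.40 points. With overlap counted only over 50% of the shorter peak the share was 40.9%, the gap 10026 bp and genes 13.1%. A promoter limit of 500 bp gave a share of 34.3%, a width of 511 bp, a gap of 18330 bp, a distance difference of 40 bp, 26.4% with a shared promoter peak, 11.6% of genes and -20.5 points with a RefSeq start. Width limits of 2000 bp and none gave shares of 42.3% and 37.9%. The wider 50% of each list gave 4602 members, a width of 956 bp, a gap of 44503 bp, a distance difference of 56.5 bp, 18.5% with a shared promoter peak, -7.28 points protein coding, 13.1% of genes, -17.6 points with a RefSeq start and -0.0581 in CpG ratio. With 1 peak for each gene, the widest promoter peak, there were 4248 members, a share of 30.7%, a width of 567 bp, a gap of 28367 bp, a distance difference of 72 bp, 7.74% with a shared promoter peak, -16.5 points protein coding, -19.7 points with a RefSeq start and -0.0728 in CpG ratio. Without chromosomes X, Y and 3 the share was 37.7%, the gap 10522 bp, genes with a shared promoter peak 37.8%, genes 12%, RefSeq start -23.2 points and CpG ratio -0.0971. Without chromosomes 18, 22 and X these were 37.5%, 10527 bp, 38.2%, 12%, -23.1 points and -0.0972. Without the 10 Mb windows of 60% or more they were 36.5%, 8670 bp, 39.9%, 11.2%, -24.5 points and -0.111, with a distance difference of 122 bp, -9.79 points protein coding and -8.86 points head to head. Classing a start by every BRG1 promoter peak within 1000 bp bears on sequence alone and gave -0.0913 in CpG ratio and 3.30 points for TGANTCA. The TGANTCA difference moved under none of the 12.
No paired analysis was possible because each subunit has 1 deposited list and no column of a replicate; replicates could not be left out in turn for the same reason. Some moves, such as those of the gap and of genes with a shared promoter peak, are set in part by the rules. How large that part is was not tested, nor was the cause of the other moves.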
